A study of Mus musculus with 6 samples.

Results

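Macrophages clear dying cells by recognizing phosphatidylserine, a lipid that apoptotic cells turn to their outer surface. Expression of 9 mouse genes of this recognition step was examined: the receptor tyrosine kinases Mertk, Axl and Tyro3 (the TAM family), their ligands Gas6 and Pros1, the bridging protein gene Mfge8, the integrin chains Itgav and Itgb5, and Timd4. They were chosen by gene symbol for their known roles, with earlier results of these data known, although the rule itself uses no measured value. All 9 were found among the 25711 gene entries of the deposited table, and 7 of them had a mean FPKM (a count corrected for gene length and for the library's total) of at least 1 over all libraries.

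The cells were macrophages derived in culture from the bone marrow of wild-type mice. A group of 3 libraries came from control cells at 24 h and another 3 from cells kept for 24 h with CCL7, a chemokine that attracts monocytes, at 500 ng/ml. Total RNA was extracted with TRIzol. The series asks how CCL7 relates to macrophage polarization in rheumatoid arthritis. Separate animals or cultures are not stated for the libraries of a group, and the p-values then reflect the spread among these libraries alone, which may be technical.

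Gas6 and protein S, the product of Pros1, are vitamin K-dependent proteins that hold phosphatidylserine at one end and bind TAM receptors at the other. Mfge8 works in a similar way but docks on alpha v integrins, among them the pair of the Itgav and Itgb5 chains. TIM-4, the product of Timd4, binds phosphatidylserine directly and is known from resident macrophages of the peritoneum and other tissues. Signals from the TAM receptors are known to dampen inflammatory responses of macrophages and dendritic cells.

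Totals ran from 34860523 to 51161400 counts per library. CCL7 replicate 2 stood apart from the other CCL7 libraries on the second principal component (-18.32, against 6.07 and 12.98), which held 2.52% of the variance. All 9 macrophage markers examined had a mean FPKM of at least 1, and Csf1r, the receptor for the macrophage growth factor, was at 569 FPKM in the controls and 676 with CCL7. The summed FPKM of the stromal list was 0.173 to 0.321 in the controls and 0.242 to 0.68 with CCL7 (7 of 8 markers in the table), and that of the chondrocyte list 0.226 to 0.597 and 0.377 to 0.436 (4 of 6, with Acan and Col2a1 at 0 counts in the controls). The lymphocyte list was at 0.0702 to 0.219 over both groups. The neutrophil list was at 0.094 to 0.204 and 1.22 to 1.91, most of it from Camp. The dendritic cell list was at 8.78 to 11.4 and 7.13 to 8.98, nearly all from Itgax. Its scarce markers went both ways. From controls to CCL7 libraries, summed counts rose for Xcr1 (12 and 131) and Ccr7 (2 and 64). They fell for Clec9a (54 and 16), Cd209a (36 and 0), Siglech (4 and 0) and Flt3 (2 and 0), and Zbtb46 had 32 and 35. The endothelial list fell from 9.71 to 10.5 in the controls to 4.04 to 5.14 with CCL7, mostly Vwf and Kdr, while Cdh5, a defining gene of endothelium, was at 0.122 and 0.152 FPKM. The part of these marker shifts in the results was not tested.

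With CCL7, the bridging proteins and the integrin chain Itgb5 were expressed at lower levels, and the receptors Mertk, Axl and Itgav did not pass the test. Of the 7 members tested, 4 fell (Gas6, Pros1, Itgb5 and Mfge8) and 0 rose with edgeR's quasi-likelihood test at an adjusted p below 0.05. Among all 11143 genes tested 35.2% fell, 33.9% rose and 69.1% changed in either direction, so a call by itself was common in this comparison. At least 2-fold falls were less common, at 8.69% of all genes, and Gas6, Pros1 and Itgb5 had them. In bulk samples, fewer cells of a type and less RNA per cell cannot be told apart.

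**Figure D1:**
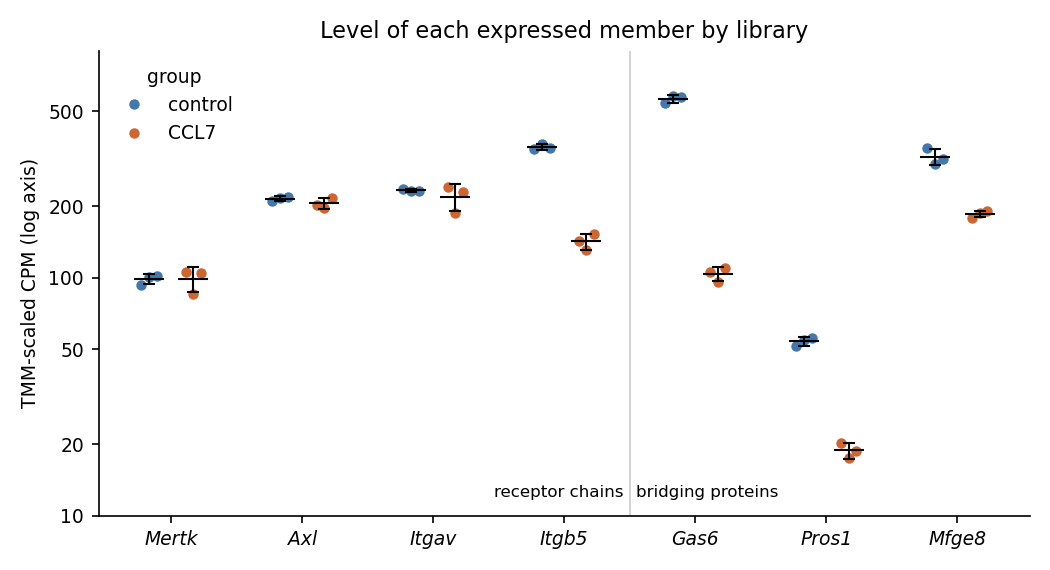
TMM-scaled CPM (log axis) of the 7 expressed members in each library, with receptor chains on the left and bridging proteins on the right. Points are libraries (3 control, 3 CCL7) and black bars show the mean ± SD; Gas6, Pros1, Mfge8 and Itgb5 do not overlap between groups, and Mertk, Axl and Itgav do.

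Gas6, the ligand that binds all of the TAM receptors, had the largest change of the 7 tested members. Its level was 541, 581 and 573 CPM (counts scaled to a common library total by the trimmed mean of M values, TMM) in the controls and 106, 95.7 and 110 CPM with CCL7. The lowest control was far above the highest CCL7 library. The log2 change was -2.45 ± 0.07 (SE, n = 3 per group here and below; edgeR adjusted p = 1.95e-10), which leaves 18.3% of the control level. By FPKM, a level per gene length, Gas6 ranked 126 among the tested genes in the controls and 1314 with CCL7. Its change lay at percentile 2.3 of the log2 changes of all genes tested.

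Pros1, the second TAM ligand and also an anticoagulant in blood plasma, was much less abundant. It stood at 51.5, 54.7 and 55.8 CPM in the controls and at 20.3, 17.4 and 18.7 CPM with CCL7, again without overlap. The log2 change was -1.52 ± 0.07 (edgeR adjusted p = 1.55e-08), leaving 34.9% of the control level. Both ligands of the family thus fell, and Gas6 fell more: the ratio of Gas6 to Pros1 in FPKM was 16.9, 17 and 16.5 in the controls and 8.33, 8.84 and 9.4 with CCL7. A ratio between genes of the same library does not depend on how libraries are scaled.

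Mfge8 showed the smallest fall of the bridging proteins. Its CPM was 350, 301 and 316 in the controls and 179, 187 and 190 with CCL7, and the groups did not overlap. The log2 change was -0.80 ± 0.07 (edgeR adjusted p = 9.81e-07), leaving 57.6% of the control level. Groups that do not overlap were found at 73.7% of all genes tested, so the gap alone does not set these members apart.

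Of the integrin chains that receive Mfge8, the beta chain fell and the alpha chain did not pass. Itgb5, the beta chain, was at 347, 366 and 350 CPM in the controls and 143, 131 and 153 CPM with CCL7, a log2 change of -1.32 ± 0.07 (edgeR adjusted p = 2.03e-08). Itgav, the alpha v chain shared by several integrins, was at 237, 232 and 231 CPM in the controls and 240, 188 and 230 CPM with CCL7. Its groups overlapped and its log2 change was -0.09 ± 0.11 (edgeR adjusted p = 0.364), or 0.01 (adjusted p = 0.78) without CCL7 replicate 2, the lowest library. The ratio of Itgb5 to Itgav in FPKM was 4.43, 4.78 and 4.59 in the controls and 1.8, 2.1 and 2 with CCL7.

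Neither of the expressed TAM receptors passed the test. Mertk, the receptor tied most closely to the uptake of apoptotic cells by macrophages, was at 93.2, 101 and 102 CPM in the controls and 106, 85.2 and 105 CPM with CCL7. CCL7 replicate 2 lay below every control and the other CCL7 libraries above. The log2 change was 0.00 ± 0.11 (edgeR adjusted p = 0.982), and it was 0.09 (adjusted p = 0.0841) without CCL7 replicate 2. Axl, the family member known for its induction by interferon and Toll-like receptor ligands in myeloid cells, was at 210, 217 and 219 CPM in the controls and 203, 197 and 217 CPM with CCL7 (log2 change -0.06 ± 0.04, edgeR adjusted p = 0.278). The Axl groups overlapped at 1 CCL7 library. The FPKM ratio of Axl to Mertk averaged 1.88 ± 0.06 (SD) for controls and 1.81 ± 0.18 for CCL7 libraries, with overlap.

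Where the calls for these receptors end depends on the scaling. When libraries were scaled by the deposited totals alone, the median log2 change of all genes moved from -0.01 to -0.25 and the share of called genes that rose from 49.1% to 27.9%. On that scale Mertk was at -0.24 (adjusted p = 0.0275), Axl at -0.30 (adjusted p = 4.29e-04) and Itgav at -0.32 (adjusted p = 0.00566), so that all 7 tested members were called lower. In deposited FPKM, which carries those totals, Mertk was at 23.4 to 25.4 in the controls and 17.9 to 22.6 with CCL7, and Axl at 45.5 to 47.2 and 35.8 to 39.9, without overlap. These falls are close to the shift of the median gene. The falls of Gas6, Pros1, Mfge8 and Itgb5 were called under all 16 alternatives tried, where their log2 changes ranged from -2.68 to -2.39, -1.76 to -1.47, -1.03 to -0.73 and -1.56 to -1.26.

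**Figure D2:**
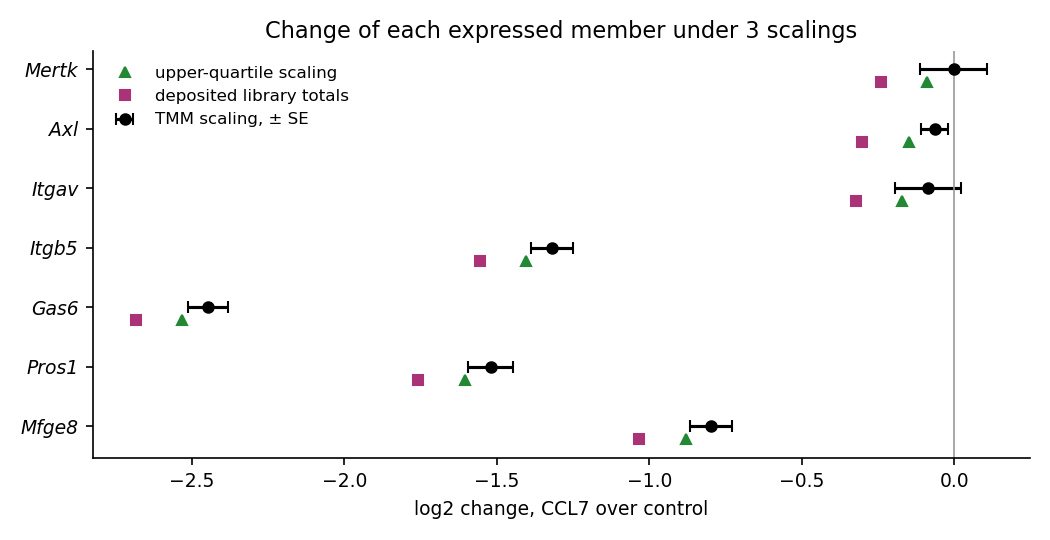
Log2 change (CCL7 over control) of the 7 expressed members, with circles for TMM scaling (bars are SE from 3 libraries per group), triangles for upper-quartile scaling and squares for the deposited library totals. Mertk, Axl and Itgav move from near 0 to between -0.24 and -0.32 with the deposited totals, while Gas6, Pros1, Itgb5 and Mfge8 lie between -2.68 and -0.80 under each scaling.

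The 2 remaining members were scarcely detected. Tyro3, the TAM receptor known mainly from the nervous system, had 2, 0 and 4 counts in the controls and 4, 0 and 0 with CCL7. A mean FPKM of 0.00919 in the controls and 0.0042 with CCL7 gives no comparison at this depth. Timd4 had 0 counts in every control and 6, 4 and 8 with CCL7. Taking 3 counts per control library as the floor, the observed CCL7 mean was 1.95 times that floor. No error was set on the CCL7 counts, so this is not a lower bound. If both mates of each pair were counted, the CCL7 total would be 9 reads and the CCL7 mean 0.973 times the floor, not above it. In the fit without the expression filter, which called 38.1% of 25711 genes and 19.2% higher, Timd4 had an edgeR adjusted p of 0.00436, between 0.00734 and 0.0376 with counts divided by 2 or without each CCL7 library. The p-values of that fit are not on the scale of the main fit. For Pros1, the edgeR adjusted p was 5.03e-86 without the filter and 1.55e-08 in the main fit. The Timd4 level with CCL7 was 0.0602 ± 0.02 FPKM (SD), far below Mertk and Axl, and the floor covers counting error in the controls alone.

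Per gene length, the order of the members was steep in the controls and flat with CCL7. In the controls Gas6 (241 ± 8.68 FPKM, SD) led Itgb5 (108 ± 2.99), Mfge8 (74.5 ± 5.89) and Axl (46.5 ± 0.90). Mertk (24.7 ± 1.18) and Itgav (23.6 ± 0.35) overlapped, and Pros1 (14.3 ± 0.58) came after them. With CCL7, Axl (37.7 ± 2.07), Gas6 (37.5 ± 2.84), Itgb5 (36.8 ± 3.11) and Mfge8 (36.4 ± 1.06) did not differ beyond their spread. Mertk (20.9 ± 2.60) and Itgav (18.8 ± 2.48) followed, overlapping each other, and Pros1 was at 4.24 ± 0.36. The sum of the 9 members was 533 ± 7.30 FPKM in the controls and 192 ± 13.0 FPKM with CCL7, and Gas6 made up 45.2% and 19.5% of it.

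Ligands were compared with receptors after the values above had been seen. The FPKM of Gas6 and Pros1 together, divided by that of Mertk and Axl together, was 3.56, 3.63 and 3.57 in the controls and 0.716, 0.711 and 0.708 with CCL7. Per gene length, ligand transcripts exceeded receptor transcripts in each control library and lay below them in each CCL7 library. The ratio of Mfge8 to Itgav went from 3.16 ± 0.21 (SD) to 1.96 ± 0.29 without overlap.

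**Figure D3:**
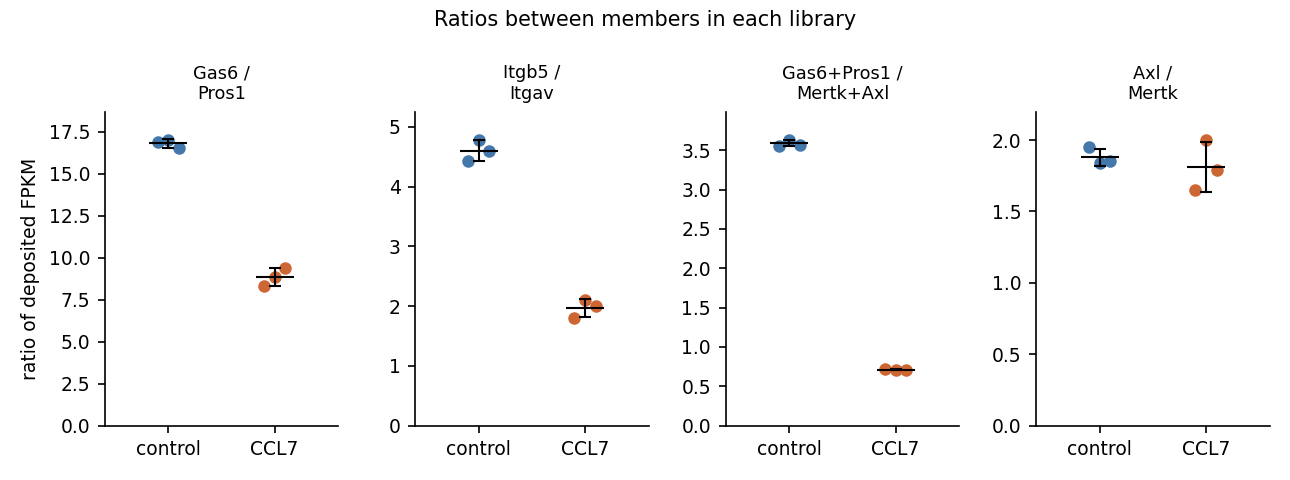
Ratios of deposited FPKM between members in each library (points), with the mean ± SD of 3 libraries per group (black). Gas6 over Pros1, Itgb5 over Itgav and ligands over TAM receptors are lower in each CCL7 library than in each control. The groups overlap for Axl over Mertk (1.84 to 1.95 in the controls, 1.65 to 2 with CCL7).

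All 9 members are annotated as protein-coding in GENCODE M21 (GRCm38), which was matched by gene identifier. Their summed exon lengths equalled the lengths implied by the deposited FPKM. Gas6 (ENSMUSG00000031451) lies on chromosome 8 at 13465374 to 13494490, minus strand. Pros1 (ENSMUSG00000022912) lies on chromosome 16 at 62854307 to 62929346, and Itgb5 (ENSMUSG00000022817) on the same chromosome at 33829665 to 33949338, both on the plus strand. Mfge8 (ENSMUSG00000030605) lies on chromosome 7 at 79133768 to 79149060 and Axl (ENSMUSG00000002602) at 25757273 to 25788705, both on the minus strand. Mertk (ENSMUSG00000014361, 128698956 to 128802894), Tyro3 (ENSMUSG00000027298, 119797733 to 119818104) and Itgav (ENSMUSG00000027087, 83724397 to 83806916) lie on the plus strand of chromosome 2, and Timd4 (ENSMUSG00000055546) on chromosome 11 at 46810800 to 46844332, plus strand. Exons of Gas6 share 34 bases with Tmem255b and those of Itgav 634 bases with Gm13684, both on the opposite strand, and without a stated strand setting such reads cannot be told apart. Those neighbours had few counts (25 and 11 for Tmem255b, 14 and 18 for Gm13684, summed over the controls and over the CCL7 libraries).

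The 4 genes that fell share that call, and whether they share regulation was not tested. Their promoters are shown, chosen on that result. Each is the 300 bases from RefSeq (GRCm38.p6), 250 before to 50 after the annotated start. Capitals mark the GC box (GGGCGG on either strand, a binding site for Sp-family factors) and, in Pros1, a match to TTCNNNGAA, the GAS element known to bind STAT factors.
Gas6, chr8:13494486-13494785, minus strand: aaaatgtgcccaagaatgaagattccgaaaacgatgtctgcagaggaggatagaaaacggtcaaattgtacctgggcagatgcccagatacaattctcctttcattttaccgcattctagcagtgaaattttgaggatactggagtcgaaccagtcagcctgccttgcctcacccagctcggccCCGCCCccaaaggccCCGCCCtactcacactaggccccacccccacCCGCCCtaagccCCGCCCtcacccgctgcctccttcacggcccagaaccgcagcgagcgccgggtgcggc
Pros1, chr16:62854057-62854356, plus strand: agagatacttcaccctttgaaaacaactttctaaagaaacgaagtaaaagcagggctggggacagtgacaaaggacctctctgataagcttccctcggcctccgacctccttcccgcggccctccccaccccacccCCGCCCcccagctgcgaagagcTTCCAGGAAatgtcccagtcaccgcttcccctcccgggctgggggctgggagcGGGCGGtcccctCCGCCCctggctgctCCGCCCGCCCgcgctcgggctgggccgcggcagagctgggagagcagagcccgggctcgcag
Mfge8, chr7:79149011-79149310, minus strand: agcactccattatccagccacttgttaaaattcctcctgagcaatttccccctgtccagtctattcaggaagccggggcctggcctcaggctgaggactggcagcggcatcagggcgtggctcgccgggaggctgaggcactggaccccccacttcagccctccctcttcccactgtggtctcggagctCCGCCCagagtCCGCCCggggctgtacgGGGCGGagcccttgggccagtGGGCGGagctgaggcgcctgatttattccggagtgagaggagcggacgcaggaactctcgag
Itgb5, chr16:33829415-33829714, plus strand: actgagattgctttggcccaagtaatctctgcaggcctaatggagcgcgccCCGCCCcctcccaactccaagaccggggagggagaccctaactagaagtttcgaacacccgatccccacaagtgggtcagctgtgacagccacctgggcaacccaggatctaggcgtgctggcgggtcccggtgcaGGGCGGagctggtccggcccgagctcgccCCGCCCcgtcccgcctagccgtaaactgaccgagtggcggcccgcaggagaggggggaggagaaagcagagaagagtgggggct

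All of these promoters held GC boxes: 4 in Gas6, 5 in Pros1, 4 in Mfge8 and 3 in Itgb5, counting overlapping matches. The receptors that did not pass held them too, with 4 in Mertk, 2 in Axl and 1 in Itgav. Over all members 8 of 9 promoters had a GC box, the exception being Timd4, against 35.7% of 32851 promoters of the same length. The GAS letters of Pros1 begin 92 bases before the start, and 8.30% of all promoters have such a match. The interferon-response core (GAAANNGAA) occurred in Timd4 and Itgav and in 8.56% of all promoters, and the NF-kB-like core (GGNNNTTCC) in none of the 9 and in 18.5% of all. GC content was 50.7% in Timd4 and 58.3% to 73.3% in the others, with a median of 52.7% over all promoters. These matches describe letters in a window and not sites in use.

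The genes whose values ran closest to Gas6 over the 6 libraries were Rell1, Smc2 and Ndrg1. Likeness was the Euclidean distance between log2 CPM values centred on the control mean, among 11115 genes. Rell1 (distance 0.115, log2 change -2.48 ± 0.06), Smc2 (0.125, -2.48 ± 0.08), a condensin subunit gene, and Ndrg1 (0.205, -2.56 ± 0.06) fell to a similar extent.

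Other genes of apoptotic cell clearance went both ways. Of the 118 genes tested from 14 lists, 53 rose, 50 fell and 15 did not pass, with a median log2 change of 0.06, against -0.01 for all genes. With the deposited library totals, where the median of all genes was -0.25, 39 of these genes rose, 63 fell and the median over all 118 was -0.18. The changes named next passed edgeR's test at an adjusted p below 0.05 unless stated, and are log2 changes ± SE.

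In the lists of other phosphatidylserine receptors, bridging and coating proteins, and engulfment receptors, more genes fell than rose. These lists are short, and among all genes tested 35.2% fell and 33.9% rose. Of 5 other phosphatidylserine receptors tested 4 fell and 1 rose, with a median of -0.80. Cd300a, an inhibitory receptor for phosphatidylserine and phosphatidylethanolamine, fell (-2.21 ± 0.02), as did the lipid receptor Trem2 (-1.56 ± 0.08). Stab1, which encodes a large scavenger receptor, rose (0.41 ± 0.12), but not with the deposited totals (adjusted p = 0.0961). Of 8 other bridging and coating proteins 3 rose and 5 fell, with a median of -0.48. Thbs1, which encodes the matrix protein thrombospondin 1, rose (2.82 ± 0.11), while Apoe (-0.78 ± 0.15) and Lgals3, which encodes galectin 3 (-0.74 ± 0.04), fell. The chains of complement C1q, which coats apoptotic cells, split: C1qb (-0.52 ± 0.04) and C1qc (-0.43 ± 0.06) fell and C1qa rose (0.36 ± 0.09), the latter without a call with the deposited totals (adjusted p = 0.157). Of 8 other engulfment receptors 3 rose and 5 fell (median -0.41). The scavenger receptor Msr1 (2.64 ± 0.03) and the endotoxin coreceptor Cd14 (1.95 ± 0.06) rose, and the mannose receptor Mrc1 (-2.51 ± 0.20) and Scarb1, a lipoprotein receptor (-0.78 ± 0.03), fell.

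Of the 5 other integrin chains listed and tested, 4 rose and 1 fell, with a median of 0.86. With the deposited totals 3 were higher and 1 was lower. Among all genes tested 33.9% rose in the main fit. Itgam (1.66 ± 0.04) and Itgb2 (1.12 ± 0.03), the chains of complement receptor 3, rose. Itgb3, the other well-known partner of alpha v in macrophages, fell (-2.20 ± 0.08). Other beta partners of alpha v went up: Itgb1 rose (0.32 ± 0.03), although with the deposited library totals its change was 0.08 (edgeR adjusted p = 0.125), and Itgb8, below the filter, rose from 0.397 to 8.47 CPM in the fit without it (4.49 ± 0.36).

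The machinery inside the engulfing cell was divided. Of 17 genes of the cytoskeletal machinery 7 rose and 7 fell: Rac2 (1.27 ± 0.06) and Rhog (0.82 ± 0.06), which encode small GTPases, rose, and Elmo1 (-0.77 ± 0.06) and Dock1 (-0.69 ± 0.10), which encode the parts of a Rac activator, fell. Of 16 genes of LC3-associated phagocytosis and phagosome maturation 5 rose and 5 fell, with Atg5 (0.50 ± 0.06) and Atg16l1 (0.42 ± 0.02) higher and Pik3c3 (-0.75 ± 0.04) and Rubcn (-0.51 ± 0.04) lower. Of 12 genes of corpse digestion and its metabolism 6 rose, led by the glucose transporter Slc2a1 (2.51 ± 0.10) and Odc1 of polyamine synthesis (1.03 ± 0.08), and 6 fell, led by the lysosomal lipase Lipa (-1.15 ± 0.03) and Dnase2a, which digests engulfed DNA (-0.53 ± 0.07). With the deposited totals the counts were 5 higher and 10 lower for the cytoskeletal list and 4 higher and 10 lower for LC3-associated phagocytosis.

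Nuclear receptors that sense engulfed lipid, and their targets, fell in 7 of 11 cases and rose in 3 (median -0.40). Pparg, a lipid-activated receptor, fell (-3.67 ± 0.24), as did the cholesterol exporter Abcg1 (-0.79 ± 0.06), and the exporter Abca1 (1.86 ± 0.20) and the liver X receptor gene Nr1h3 (1.45 ± 0.04) rose. In mouse macrophages Mertk is a known target of liver X receptors.

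Genes that act on TAM ligands and receptors after transcription were also measured. Gamma-carboxylation, the vitamin K-dependent step that lets Gas6 and protein S bind phosphatidylserine, was represented by 3 genes, of which 2 fell and 1 rose. The carboxylase gene Ggcx (-0.35 ± 0.05) and Vkorc1 (-1.14 ± 0.24), which recycles vitamin K, fell, and Vkorc1l1 rose (0.15 ± 0.05), although its change was -0.09 with the deposited totals. Among the sheddases known to cleave Mertk and Axl and their cofactors, Adam17 (0.83 ± 0.07) and its transport partner Rhbdf2 (1.55 ± 0.03) rose and Adam10 fell (-0.67 ± 0.07). Of 10 tested genes of signalling below TAM receptors 7 rose and 2 fell. The feedback inhibitors Socs3 (6.35 ± 0.20) and Socs1 (2.79 ± 0.13), which TAM signalling is known to induce in dendritic cells, rose, and Nck2 (-1.38 ± 0.06) and Pik3r1 (-0.38 ± 0.11), which encode an adaptor and a PI3-kinase subunit, fell.

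Genes that act before contact changed as well. Of 8 receptors for find-me signals 4 rose and 3 fell. The nucleotide receptor P2ry2 (2.06 ± 0.08) and Gpr132, a receptor linked to lysophosphatidylcholine (1.21 ± 0.07), rose, and the fractalkine receptor Cx3cr1 (-1.51 ± 0.17) and S1pr1 (-0.80 ± 0.11) fell. Of 6 genes listed for do-not-eat-me signals 3 rose and 2 fell. The inhibitory receptors Pilra (6.10 ± 0.18, from 3.26 ± 0.62 to 225 ± 17.5 CPM, SD) and Pirb (1.03 ± 0.01) were higher. Cd24a (-0.78 ± 0.05) and Lrp1 (-0.68 ± 0.23) were lower. Lrp1 is also an engulfment receptor, and its fall was counted in the list of other engulfment receptors too. Of 7 genes of phosphatidylserine exposure 4 rose and 1 fell, but with the deposited totals 1 was higher and 3 were lower. The scramblase gene Xkr8 (1.47 ± 0.08) rose, Plscr1 (0.35 ± 0.04) rose but had an adjusted p of 0.149 with the deposited totals, and the flippase gene Atp8a1 (-0.75 ± 0.10) fell.

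**Figure D4:**
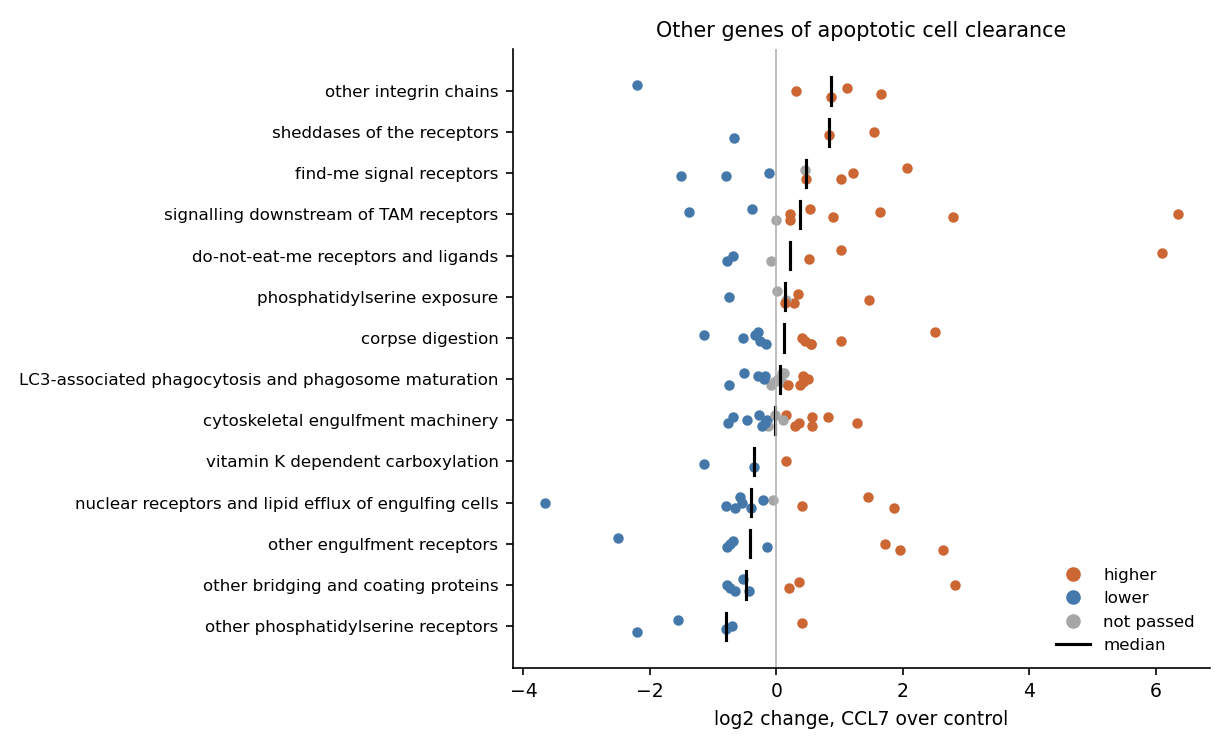
Log2 change (CCL7 over control) of the tested genes of 14 lists of apoptotic cell clearance; each point is a gene, coloured by whether it passed edgeR's test as higher or lower, and black bars are list medians. The medians run from -0.80 for other phosphatidylserine receptors to 0.86 for other integrin chains.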

How the data were processed

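RNA sequencing was done on 6 libraries, 3 per group. Raw counts per gene and FPKM were deposited by the authors, per the file headers. FPKM is the count divided by gene length and library total, since 1 length per gene fits every column (largest relative spread 9.33e-15). The submitters' processing notes name Bowtie 0.12.2, mm8 and mm9 without saying what each was used for. How reads were counted, with which strand setting and annotation, is not given in the sources used here. Even numbers were in excess among counts of 1 to 9 (66.0%, against 50.1% of counts of 100 or more), so both mates of a pair may have been counted, and an alternative with counts divided by 2 was run. A total of 175 entries had no symbol (at most 0.0029% of counts) and kept their identifiers.

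Testing covered genes of mean FPKM 1 or more, by edgeR 4.0.16 (quasi-likelihood, TMM, group as the only term, 2-sided, Benjamini-Hochberg over 11143 genes, threshold 0.05). Members and list genes below it have values from an unfiltered fit, whose p-values cannot be set beside those of the main fit. Standard errors come from the SDs of log2 CPM. Alternatives used limma 3.58.1 on log2(FPKM + 1) and log2(FPKM + 0.1), DESeq2 1.42.0, other scalings and filters, a replicate block and each library left out. Floors of 3 counts per library cover counting error only, with wider error if mates were counted. No pair of libraries agreed within counting noise (chi-square per degree of freedom 4.33 to 37.1). The code was tested on simulated data.

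The members and gene lists were chosen with earlier results of these data known. Named genes were all members, up to 2 genes with the largest rises and falls per list, and the 3 nearest to Gas6; C1qb, C1qc, Itgb1 and Itgb8 were named after their values were seen, and so were the ratios of ligands to receptors, Itgb5 to Itgav and Mfge8 to Itgav and the GC box. A gene of the lists is not reported here and was left out of their counts.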

Additional observations from a re-analysis of the deposited data

How the results depend on the processing

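The number of genes called was 7698 of 11143 tested. Under 16 alternatives it stayed within 5164 of 7082 (mean FPKM of at least 5) and 9798 of 25711 (no filter). Those filters test different numbers of genes, so these counts are not like for like. With each library left out, 6959 to 8044 genes were called. In those leave-one-out fits 4 members were called each time. With the deposited totals and with limma on log2(FPKM + 1), which uses the same totals, 7 members were called lower in place of 4. Mertk was then at -0.24 (adjusted p = 0.0275) and -0.236 (adjusted p = 0.0498). Its sign turned positive with DESeq2 size factors (0.01), without the filter (0.047) and with the DESeq2 test (0.01), and leaving out libraries gave -0.052 to 0.091. Axl was called lower with the deposited totals (-0.302), upper-quartile scaling (-0.15, adjusted p = 0.021), a mean FPKM of at least 5 (-0.127, adjusted p = 0.047) and limma with a pseudocount of 1 (-0.297) or 0.1 (-0.303). Itgav was called lower with the deposited totals (-0.323) and limma with a pseudocount of 1 (-0.317) or 0.1 (-0.331), and ranged from -0.15 to 0.012 when libraries were left out. The cause of the other calls was not tested. In raw counts, which ignore length, the ratio of Gas6 to Pros1 was 10.5 and 5.52.

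The replicate numbers gave no sign of pairing: deviations of same-numbered libraries correlated at -0.083, -0.028 and -0.032. Differently numbered libraries correlated at -0.036 to 0.076. With 3 libraries per group these values cannot show that the libraries were unpaired. A fit with the replicate block called 7432 genes and 4 members. Depth limits Tyro3 and Timd4, whose counts are near the floor.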
